A study of Mus musculus with 9 samples.

Results

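The transcripts of glycolysis and of the hypoxia-inducible factor (HIF) pathway were followed in lung endothelial cells (ECs) from mice with and without experimental breast cancer metastases. The set was a list of 38 genes, 23 of glucose uptake, glycolysis and lactate handling and 15 of HIF regulation and its other target genes. Of these, 35 were measured among the 18193 genes of the array, 21 in the glycolysis arm and 14 in the HIF arm. Gpi1 and Eno1 were not named by the probe table used here, Bnip3l was carried only by probe sets assigned to several genes, and these 3 genes were not analysed here. The study compared 3 groups of 3 arrays each, all of ECs from NSG mice, an immunodeficient strain that lacks lymphocytes. Mice of the metastatic DC101 group received MDA-MB-231-LM2 cells, human breast cancer cells selected for growth in lung, through the tail vein at 6 to 8 weeks of age, then DC101, a rat antibody against VEGF receptor 2 (VEGFR2), at 40 mg/kg on days 21 and 24. The metastatic IgG group received the same cells and control rat IgG on the same days, and both were harvested on day 25. The healthy IgG group held age-matched mice without cancer cells that were given control IgG. ECs were sorted from whole lungs as CD31+ cells that lacked GFP, the label of the cancer cells, and the surface markers CD140a/b, EpCAM, CD11b and CD45. Vessels of metastases and of the lung around them were thus pooled, and the use of human cells in an immunodeficient host limits the model. The labels name biological replicates without saying whether each was a separate mouse. The p-values therefore reflect the spread among these arrays alone, which may not be the spread among separate mice.

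Glycolysis splits glucose into pyruvate and yields ATP without oxygen, and ECs are known to rely on it heavily, also during vessel sprouting. HIF is a transcription factor made of an oxygen-regulated alpha subunit (Hif1a or Epas1) and the stable partner Arnt. With oxygen present, prolyl hydroxylases mark the alpha subunits for destruction, and at low oxygen HIF binds DNA at hypoxia response elements and raises genes of glucose uptake, glycolysis, mitophagy, collagen modification and vessel growth. Much of this control acts on the HIF proteins, which arrays do not measure.

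Values are given on the log2 scale, where a difference of 1 is 2-fold, and the number of arrays limits their precision. The probe set with the highest mean stood for a gene, so levels are compared between groups for 1 gene and never between genes. The 10 endothelial markers were all above background. They averaged 13.51 to 13.62 in DC101 arrays, 13.56 to 13.58 in metastatic IgG arrays and 13.59 to 13.60 in healthy arrays. These levels bear out the labelled cell type but do not measure its purity. Markers of other cell types were above background too, among them Sftpc, Lyz2 and Col1a2, with means of 13.03, 12.40 and 11.57 in healthy arrays. Arrays of a group correlated at 0.983 or more, and the first principal component (40.1% of the variance) set the healthy arrays apart, while DC101 replicate 3 and DC101 replicate 1 stood apart on the components after it. Background was taken as the 95th percentile of 80 probe sets of odorant and pheromone receptor genes, a level of 7.48. Of the 35 genes, 30 had a mean above it in every group. Slc16a1 was above it only in metastatic IgG arrays, Hk2, Aldoc and Egln3 in both metastatic groups, and Eno2 in DC101 and healthy arrays.

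The promoters of the set were searched for the core of the hypoxia response element, the motif at which HIF binds DNA. The letters ACGTG and GCGTG were searched on both strands, from 250 bases before to 50 after each annotated start (RefSeq, GRCm38.p6), and overlapping matches counted as 1 site. ACGTG also lies within the E-box CACGTG, which other factors bind. Of the 35 measured genes, 32 had a window in the table. A site was present in 30 of these 32 genes (93.8%), against 46.7% of the 27025 genes of the table, and 54.3% of the 46 windows of these genes held 2 or more sites, against 17.3% of all windows. Both motifs contain CG, and the windows of the set held a median of 22 CG pairs, against 7 over all windows, so base composition moved with this share and its part was not tested. A site was found in 7 of the 8 genes with a window that were called in metastatic IgG against healthy lungs, and in 23 of the 24 that were not. With a site in 30 of the 32 genes, its presence could not separate called from other genes, and no conclusion is drawn from these counts. The sequences below show 5 windows with the sites in capitals, chosen as the gene with the largest increase (Ankrd37, chr8:45999801-46000100, minus strand), the one with the most sites among the called genes (Bnip3, chr7:138909457-138909756, minus strand), the gene that fell (Hilpda, chr6:29272376-29272675, plus strand), the glycolytic enzyme with the largest called change (Pkm, chr9:59656977-59657276, plus strand) and a called gene with no site (Tpi1, chr6:124814109-124814408, minus strand). Each is printed in the direction of transcription.
Ankrd37: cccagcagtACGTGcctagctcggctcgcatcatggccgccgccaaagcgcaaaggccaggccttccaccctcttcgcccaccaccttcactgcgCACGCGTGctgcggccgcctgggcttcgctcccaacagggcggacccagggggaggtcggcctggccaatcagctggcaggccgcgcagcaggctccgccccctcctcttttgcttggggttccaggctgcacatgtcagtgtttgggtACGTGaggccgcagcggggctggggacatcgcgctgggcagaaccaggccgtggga
Bnip3: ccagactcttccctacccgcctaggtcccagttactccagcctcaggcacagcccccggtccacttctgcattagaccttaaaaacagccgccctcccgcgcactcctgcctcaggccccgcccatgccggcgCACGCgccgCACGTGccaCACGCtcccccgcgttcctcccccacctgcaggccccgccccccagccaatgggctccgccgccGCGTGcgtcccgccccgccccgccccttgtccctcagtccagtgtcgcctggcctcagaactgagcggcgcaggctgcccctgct
Hilpda: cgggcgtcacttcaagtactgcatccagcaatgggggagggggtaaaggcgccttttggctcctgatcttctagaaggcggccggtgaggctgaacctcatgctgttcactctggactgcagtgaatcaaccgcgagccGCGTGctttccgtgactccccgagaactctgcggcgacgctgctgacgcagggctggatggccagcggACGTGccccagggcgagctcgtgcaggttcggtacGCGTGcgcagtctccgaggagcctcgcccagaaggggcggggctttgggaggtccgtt
Pkm: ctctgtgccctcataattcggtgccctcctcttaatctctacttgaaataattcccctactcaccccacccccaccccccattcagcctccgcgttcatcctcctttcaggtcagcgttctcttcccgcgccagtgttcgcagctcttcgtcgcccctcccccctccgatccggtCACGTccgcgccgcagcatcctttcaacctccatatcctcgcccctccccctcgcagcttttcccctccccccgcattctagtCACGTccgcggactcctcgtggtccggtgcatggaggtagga
Tpi1: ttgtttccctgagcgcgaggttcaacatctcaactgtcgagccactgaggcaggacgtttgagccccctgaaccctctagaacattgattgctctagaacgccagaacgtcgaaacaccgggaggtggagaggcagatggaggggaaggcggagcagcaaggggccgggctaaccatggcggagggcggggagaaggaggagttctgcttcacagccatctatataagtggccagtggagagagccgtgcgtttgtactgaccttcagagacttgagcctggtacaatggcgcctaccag

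Ankrd37 had 3 sites, the first bases of which lay at -241, -155 and -6 from the start, and Bnip3 had 4, of which 1 was an E-box. Hilpda, which moved in the opposite direction to these genes in metastatic lungs, had 3 sites as well, at -111, -43 and -8. Pkm and Hilpda each had another annotated window, with no site in that of Pkm. The other window of Hilpda overlapped the one shown, and its 1 site was the same as the site at -111, which thus counted in both windows. The presence of a match is a description of the letters and no evidence of binding.

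The first comparison asked how the pathway stood in ECs of metastatic lungs against healthy lungs, both with control IgG. A subset of the genes rose, among them 4 glycolytic enzymes (Pfkl, Tpi1, Pgk1 and Pkm), the HIF subunit gene Hif1a and 3 HIF targets (Ankrd37, Bnip3 and Ndrg1), while the HIF target Hilpda fell. The rise of Pfkl depended on the probe set. The largest change was that of Ankrd37, 4.93-fold higher, and the glycolytic increases lay between 1.40-fold and 1.82-fold. By limma with Benjamini-Hochberg adjustment over all 18193 genes, 8 of the 35 genes were called higher (adjusted p under 0.05) and 1 lower, and 26 were not called. Over all genes, 6.53% were called, 3.93% higher and 2.60% lower. The median log2 change of the 35 genes was 0.20, against -0.02 over all genes. The 3 metastatic arrays lay entirely above the 3 healthy arrays for 17 of the 35 genes and entirely below them for 2 (Hilpda and Higd1a), against 13.0% and 14.7% of all genes (27.6% in either direction). The fold changes come from a bulk population, in which fewer cells of a type and less RNA per cell cannot be told apart.

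Other features of the arrays moved with this contrast. Cell division markers, such as Mki67 and Top2a, were called higher for 10 of 11 genes, and their summed level (log2) ran from 14.79 to 15.47 in metastatic IgG arrays and from 13.58 to 13.66 in healthy arrays. Of 10 macrophage and monocyte markers, 4 were called higher (C1qa, C1qb, C1qc and Mrc1). The summed level of the 10 overlapped, at 13.14 to 13.38 in metastatic IgG arrays and 13.28 to 13.41 in healthy arrays. Of the 10, 5 had a positive change and 5 a negative one. Among the latter, without a call, were Ptprc (-0.68, limma adjusted p = 0.0614, all metastatic IgG arrays lower) and Lyz2 (-0.40, adjusted p = 0.21). Fibroblast and mural markers had 2 of 8 called higher (Col1a1 and Col1a2) and 1 lower. Their summed levels were 13.66 to 14.30 in metastatic IgG arrays and 13.18 to 13.60 in healthy arrays. Only 2 of these 8 had a positive change and 6 a negative one, with a median of -0.10. Among the 6 were Dcn (means of 10.41 in metastatic IgG and 11.46 in healthy arrays) and Pdgfra (9.68 and 10.25). Lung epithelial markers had 3 of 9 called lower (12.68 to 13.00 in metastatic IgG arrays, 13.45 to 14.20 in healthy arrays) and erythrocyte and platelet markers 3 of 7 lower (11.13 to 11.37 in metastatic IgG arrays, 12.12 to 12.25 in healthy arrays). No call was made among 7 neutrophil and 6 lymphocyte markers. The 3-prime minus 5-prime difference of the Gapdh control probe sets, which reads RNA integrity, was 0.47 to 0.57 in metastatic IgG arrays and 0.69 to 0.77 in healthy arrays. The same difference for the Actb control overlapped, at 0.01 to 0.09 in metastatic IgG arrays and -0.11 to 0.09 in healthy arrays. The part of these features in the results on glycolysis and HIF genes was not tested.

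**Figure D1:**
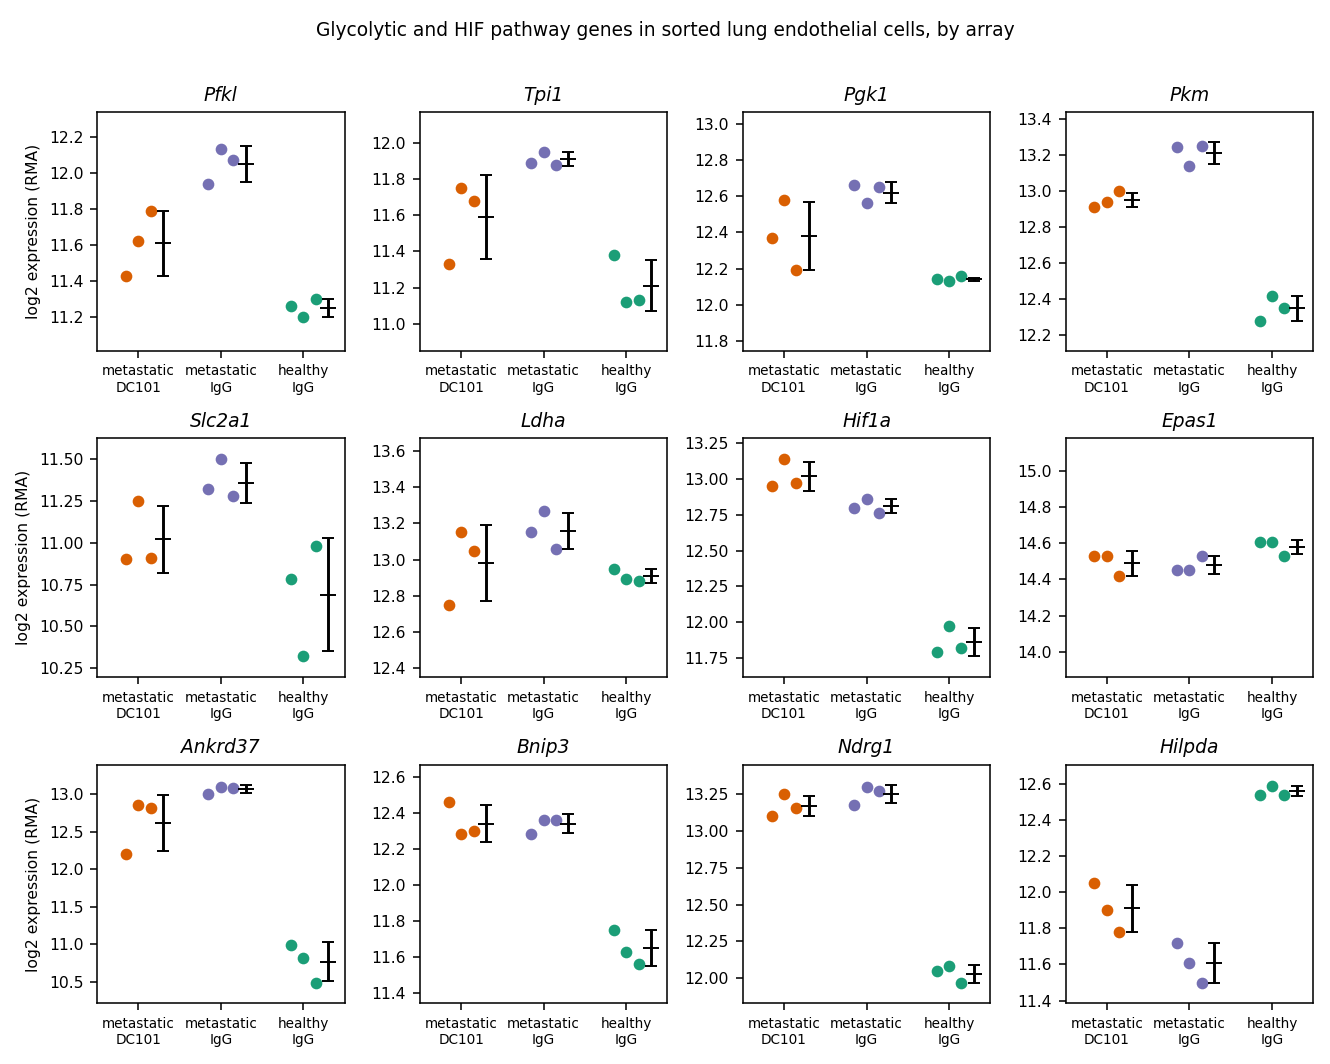
Log2 expression of 12 genes (vertical axis) in each array of the metastatic DC101, metastatic IgG and healthy IgG groups; points are arrays, and the bar beside them is the mean ± SD (n = 3). Vertical axes differ between panels. The healthy arrays lie below both metastatic groups for Ankrd37, Ndrg1, Hif1a, Bnip3, Pkm, Pfkl and Pgk1 and above them for Hilpda.

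Of the 2 glucose transporters, neither was called. Slc2a1 (GLUT1), the main glucose carrier of endothelium, stood at 11.32, 11.50 and 11.28 in metastatic IgG arrays and at 10.78, 10.32 and 10.98 in healthy arrays. All 3 metastatic arrays were higher, but the healthy arrays were widely spread, and the difference of 0.67 ± 0.17 (SE) missed the threshold (adjusted p = 0.0724). Slc2a1 did pass with a moderation that follows intensity and with only genes above the median level, and its adjusted p ran from 0.0314 to 0.18 over 15 alternatives. Slc2a3 (GLUT3), a carrier best known from neurons, averaged 8.28 ± 0.29 in metastatic IgG arrays and 8.76 ± 0.30 in healthy arrays (SD, n = 3 each), with overlapping arrays and an adjusted p of 0.214.

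Of the 12 glycolytic enzymes measured, 4 were called higher, none lower, and 11 had a positive log2 change, while 54.9% of all genes had a negative one. Pkm, pyruvate kinase, which makes pyruvate and ATP in the last step, stood at 13.24, 13.14 and 13.25 in metastatic IgG arrays and at 12.28, 12.42 and 12.35 in healthy arrays. The groups were separated by more than the range within either, and the log2 difference was 0.86 ± 0.09 (SE, adjusted p = 0.00318). Pfkl, the liver-type subunit of phosphofructokinase, which commits sugar to glycolysis, stood at 11.94, 12.13 and 12.07 in metastatic IgG arrays and at 11.26, 11.20 and 11.30 in healthy arrays. Its difference was 0.79 ± 0.09 (SE, adjusted p = 0.00469). The call depended on the probe set, because another probe set of Pfkl also rose (0.68) while the remaining, dimmer one did not (-0.15). The dimmer one stood for Pfkl in the alternative without probe sets whose probes can match several transcripts or genes (adjusted p = 0.753). With the mean of all 3 the adjusted p of Pfkl was 0.0631, and it ran from 0.00048 to 0.753 over 15 alternatives.

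Tpi1, triosephosphate isomerase, which interconverts the 2 sugars that aldolase makes, stood at 11.89, 11.95 and 11.88 in metastatic IgG arrays and at 11.38, 11.12 and 11.13 in healthy arrays. The groups did not overlap, with a difference of 0.70 ± 0.10 (SE, adjusted p = 0.0108), and all 3 of its probe sets were called. These probe sets were all of types whose probes can match several transcripts or genes. Tpi1 thus had no value in the alternative without such types. Pgk1, phosphoglycerate kinase, which carries out the first ATP-forming step, stood at 12.66, 12.56 and 12.65 in metastatic IgG arrays and at 12.14, 12.13 and 12.16 in healthy arrays. The healthy arrays of Pgk1 were almost identical and all metastatic arrays were above them, with a difference of 0.48 ± 0.08 (SE, adjusted p = 0.0189). The call for Pgk1 was lost when any 1 array other than metastatic IgG replicate 2 was left out (adjusted p from 0.0424 to 0.0652 over these 6 fits), and its adjusted p ran from 0.00124 to 0.0675 over all 15 alternatives.

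The other 8 glycolytic enzymes were not called. Aldoc, the brain-type aldolase, had the largest difference among these, 0.75 ± 0.19 (SE, adjusted p = 0.0725), with values of 7.98, 7.63 and 7.24 in metastatic IgG arrays and 7.03, 6.90 and 6.68 in healthy arrays. The groups did not overlap, but all healthy arrays and 1 metastatic array of Aldoc were within the receptor background, and its other probe set differed by 0.12. Aldoc was called in 3 of 13 alternatives, with the replicate block, without metastatic IgG replicate 3 and with a moderation that follows intensity, and its adjusted p ran from 0.0396 to 0.854 over them. Hk1 and Hk2, hexokinases that trap glucose in the cell, differed by 0.29 and 0.20, and Pfkm and Pfkp, the muscle and platelet subunits of phosphofructokinase, by 0.18 and 0.26. Aldoa, the main aldolase, differed by 0.17, a value called only with the moderation that follows intensity (adjusted p = 0.0207, range 0.0207 to 0.69 over 14 alternatives). Pgam1, phosphoglycerate mutase, differed by 0.20, and Eno2, the neuronal enolase, had the one negative value of the 12, at -0.49 ± 0.41 (SE).

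Pfkfb3 and Pfkfb4 set the level of the sugar phosphate that is the strongest activator of phosphofructokinase, and Pfkfb3 is known as a driver of glycolysis in sprouting vessels. Pfkfb3 stood at 10.65, 10.65 and 10.93 in metastatic IgG arrays and at 10.55, 10.84 and 10.89 in healthy arrays. The arrays overlapped and the difference was -0.02, with a 95% interval from -0.33 to 0.30. Pfkfb4 differed by -0.31 (interval from -1.02 to 0.40), a value that turned to 0.04 without healthy replicate 3.

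None of the 5 genes of pyruvate and lactate handling was called, although all 5 had a positive log2 change. Ldha, the lactate dehydrogenase subunit that favours lactate, averaged 13.16 ± 0.10 in metastatic IgG arrays and 12.91 ± 0.04 in healthy arrays (SD, n = 3 each), a difference of 0.25 (adjusted p = 0.172) without overlap of arrays. With the moderation that follows intensity Ldha was called (adjusted p = 0.0301), and its adjusted p ran from 0.0301 to 0.349 over 14 alternatives. Ldhb, the subunit that favours pyruvate, differed by 0.58 (adjusted p = 0.14), also without overlap. Pdk1, which holds pyruvate back from oxidation in the mitochondria, differed by 0.16. The lactate carriers Slc16a1 (MCT1) and Slc16a3 (MCT4) differed by 0.55 and 0.15, and the arrays of these 3 genes overlapped. The healthy arrays of Slc16a1 were widely spread, with replicate 3 lowest at 6.19 and the others at 7.35 and 8.01.

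**Figure D2:**
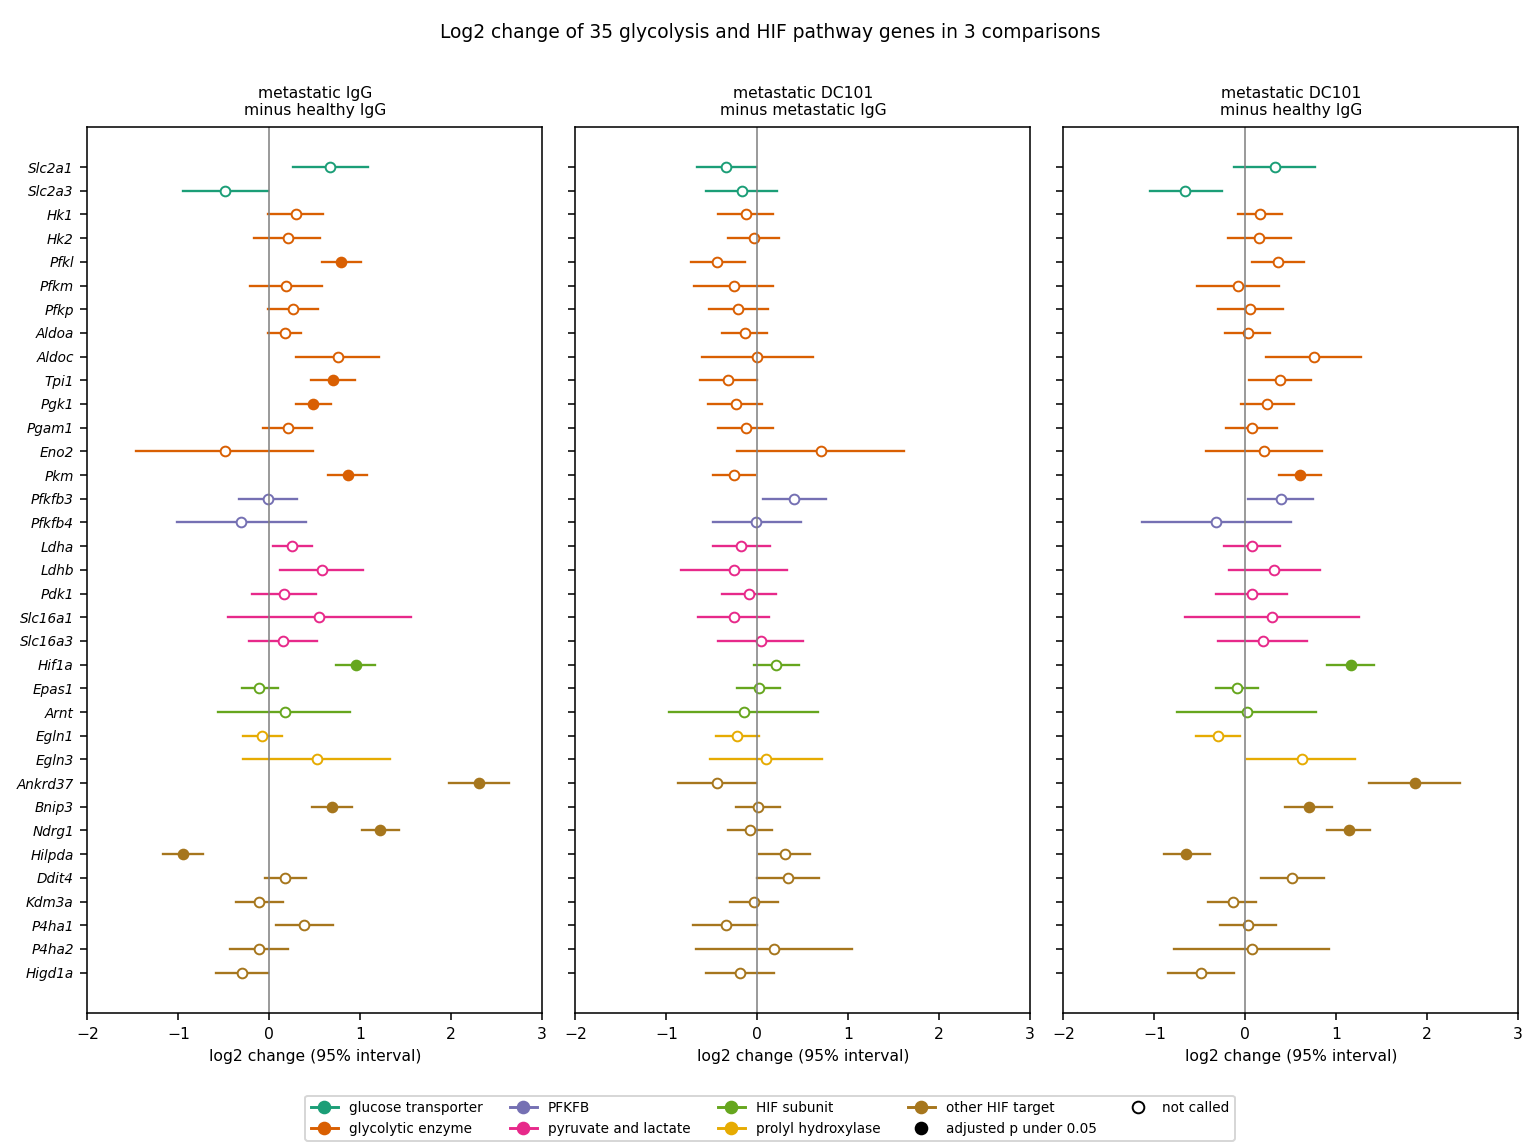
Log2 change (horizontal axis) of the 35 measured genes, ordered by role, in the comparisons of metastatic IgG with healthy, metastatic DC101 with metastatic IgG, and metastatic DC101 with healthy lungs; bars are 95% intervals of limma and filled points have an adjusted p under 0.05. Filled points number 9, 0 and 6 in these panels.

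Among the HIF subunits, only Hif1a was called. Hif1a, the oxygen-regulated subunit of HIF-1, stood at 12.80, 12.86 and 12.76 in metastatic IgG arrays and at 11.79, 11.97 and 11.82 in healthy arrays. The metastatic arrays were higher by 0.95 ± 0.09 (SE, adjusted p = 0.00247), a 1.93-fold difference. All 4 probe sets of Hif1a were higher, by 0.95 to 1.43, and 3 of them were called. Epas1 (HIF-2 alpha), the alpha subunit known for its high level in lung endothelium, stood at 14.45, 14.45 and 14.53 in metastatic IgG arrays and at 14.61, 14.61 and 14.53 in healthy arrays. These arrays met at 14.53, near the top of the array's scale, and the difference of -0.11 had an interval from -0.30 to 0.09. Arnt, the shared partner, differed by 0.17 ± 0.31 (SE). The difference in response between Hif1a and Epas1 was not tested.

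The prolyl hydroxylases, enzymes that mark HIF for destruction and are themselves known HIF targets, were not called. Egln1 (PHD2), the main one in ECs, averaged 11.98 ± 0.06 in metastatic IgG arrays and 12.05 ± 0.08 in healthy arrays (SD, n = 3 each), a difference of -0.08 that turned to 0.05 with the mean of its 2 probe sets. Egln3 (PHD3) differed by 0.52 ± 0.34 (SE, adjusted p = 0.449), and its other probe set by 1.03 (adjusted p = 0.0585 over all probe sets).

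Of the 9 other HIF targets measured, 3 were called higher and 1 lower. Ankrd37, an ankyrin repeat protein whose transcript is a sensitive HIF target, stood at 13.01, 13.10 and 13.08 in metastatic IgG arrays and at 10.99, 10.82 and 10.49 in healthy arrays. Every metastatic array was higher than every healthy array, and the difference was 2.30 ± 0.14 (SE, adjusted p = 0.000473). Ndrg1, a gene raised by hypoxia and other stress, stood at 13.18, 13.30 and 13.27 in metastatic IgG arrays and at 12.05, 12.08 and 11.97 in healthy arrays. All metastatic arrays were higher, by 1.22 ± 0.09 (SE, adjusted p = 0.000813), a 2.33-fold difference, and all 5 probe sets of Ndrg1 were called, at 1.12 to 1.22. Bnip3, a mitochondrial receptor that marks mitochondria for removal, stood at 12.28, 12.36 and 12.36 in metastatic IgG arrays and at 11.75, 11.63 and 11.56 in healthy arrays. It was higher in every metastatic array, by 0.69 ± 0.09 (SE, adjusted p = 0.00768).

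Hilpda, a lipid droplet protein that inhibits fat breakdown and is known as a HIF target, moved the other way. It stood at 11.72, 11.61 and 11.50 in metastatic IgG arrays and at 12.54, 12.59 and 12.54 in healthy arrays. The metastatic arrays were all lower, with a log2 change of -0.95 (SE 0.09, adjusted p = 0.00249), a 1.93-fold difference, and the call held in all 14 alternatives in which the gene could be fitted (adjusted p from 0.00011 to 0.018). Hilpda had 1 probe set, of a type whose probes can match several transcripts, so it had no value in the alternative without such types.

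The other 5 HIF targets were not called. Ddit4 (REDD1), an inhibitor of the growth kinase mTORC1, differed by 0.17 and P4ha1, a catalytic subunit of collagen prolyl hydroxylase, by 0.38 (adjusted p = 0.157), both without overlap of arrays. P4ha2, the related subunit, differed by -0.11 and Kdm3a, a histone demethylase, by -0.11. Higd1a, a small protein of the mitochondrial inner membrane, averaged 11.87 ± 0.15 in metastatic IgG arrays and 12.17 ± 0.15 in healthy arrays (SD, n = 3 each), and its difference of -0.30 was not called (adjusted p = 0.217). Its 2 dimmer probe sets differed by -0.63 and -0.84, the larger one called (adjusted p = 0.0269 over all probe sets), and the mean of the 3 was called too (-0.59, adjusted p = 0.0305). Over 14 alternatives the adjusted p of Higd1a ran from 0.0305 to 0.44.

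**Figure D3:**
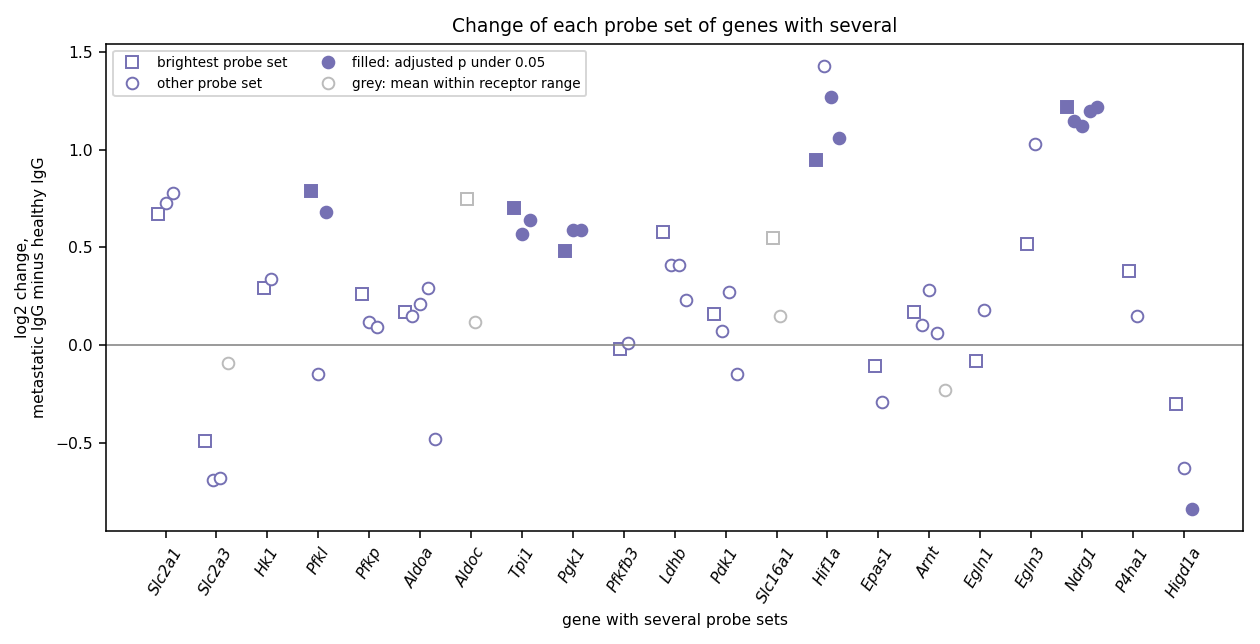
Log2 change of metastatic IgG over healthy arrays (vertical axis) for each probe set of the 21 genes with several (65 probe sets); squares are the brightest probe set, filled symbols have an adjusted p under 0.05 over 34945 probe sets, and grey symbols have means within the receptor background. The probe sets of Ndrg1, Tpi1 and Pgk1 lie close together and those of Pfkl and Aldoa on both sides of 0.

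Of the 79 probe sets of these genes, 21 were called in metastatic IgG against healthy lungs, against 4.67% of all 34945 probe sets. Further genes of the same pathways, outside the list, were set beside the 6.53% called over all genes. None of 31 further genes of glycolysis and glucose use was called, with a median change of -0.01. Of 38 further HIF pathway genes, 4 were called higher and none lower, with a median change of 0.04. Adm, the vasoactive peptide adrenomedullin, rose by 1.63 ± 0.14 (SE, adjusted p = 0.00169), with 11.23, 11.15 and 11.28 in metastatic IgG arrays and 9.31, 9.83 and 9.64 in healthy arrays. No arrays of Adm overlapped. Bhlhe40, a transcriptional repressor, rose by 0.63 (adjusted p = 0.00797), Plod1, a collagen lysyl hydroxylase, by 0.58 (adjusted p = 0.0166) and Narf, a nuclear protein that binds prelamin A, by 0.49 (adjusted p = 0.0383). Calls of Plod1 and Narf did not hold throughout: their adjusted p over 15 alternatives ran from 0.0017 to 0.0933 for Plod1 and from 0.016 to 0.121 for Narf. Leaving out any 1 of the 6 arrays ended the call of Narf, and leaving out metastatic IgG replicate 2 or 3 or healthy replicate 1 or 2 ended that of Plod1. Gapdh, a glycolytic enzyme represented by control probe sets and therefore not tested, read 13.72, 13.70 and 13.65 in metastatic IgG arrays on its middle probe set and 13.32, 13.20 and 13.23 in healthy arrays.

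The next comparison asked whether blocking VEGFR2 changed these genes in metastatic lungs. Under DC101 no gene of the set was called against metastatic IgG, and none of all 18193 genes was (0.00%). At an unadjusted p under 0.05, limma picked 1209 of all genes (6.65%) and 7 of the 35 genes, 2 higher and 5 lower, against 2.71% and 3.94% of all genes. A fit with intensity trend and robust moderation called 0 genes as well. The median change of the 35 genes was -0.13, against -0.02 over all genes, and it was -0.17 for the glycolysis arm and -0.01 for the HIF arm. Of the 21 glycolysis genes, 17 had a negative log2 change, as had 54.6% of all genes. The DC101 arrays lay entirely below the metastatic IgG arrays for 8 of the 35 genes and entirely above for 3, against 6.95% and 5.40% of all genes (12.4% in either direction). The values that follow are described without a call.

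The genes with lower values under DC101 included several that were higher in metastatic than in healthy lungs, and both comparisons use the same metastatic IgG arrays. Pfkl stood at 11.43, 11.62 and 11.79 in DC101 arrays and at 11.94, 12.13 and 12.07 in metastatic IgG arrays. The groups did not overlap, and the difference of -0.44 had an interval from -0.73 to -0.14 before adjustment (adjusted p = 0.737). Ankrd37 stood at 12.20, 12.86 and 12.82 in DC101 arrays, replicate 1 being the lowest, and at 13.01, 13.10 and 13.08 in metastatic IgG arrays. Its difference was also -0.44 (interval from -0.87 to -0.01), and it ran from -0.56 to -0.23 over 15 alternatives. Pkm stood at 12.91, 12.94 and 13.00 in DC101 arrays and at 13.24, 13.14 and 13.25 in metastatic IgG arrays, again without overlap (difference -0.26, interval from -0.49 to -0.03). Slc2a1 stood at 10.90, 11.25 and 10.91 in DC101 arrays and at 11.32, 11.50 and 11.28 in metastatic IgG arrays, a difference of -0.34 (interval from -0.66 to -0.02).

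Tpi1 differed by -0.32, P4ha1 by -0.35, Egln1 by -0.22 and Aldoa by -0.14, each with all DC101 arrays below all metastatic IgG arrays. Pgk1 differed by -0.24, with overlapping arrays. The genes with higher values in all DC101 arrays were Hif1a, Hilpda and Ddit4. Hilpda stood at 12.05, 11.90 and 11.78 in DC101 arrays and at 11.72, 11.61 and 11.50 in metastatic IgG arrays, a difference of 0.30 (interval from 0.02 to 0.58, adjusted p = 0.741). Ddit4 stood at 12.27, 12.01 and 11.77 in DC101 arrays and at 11.77, 11.64 and 11.62 in metastatic IgG arrays, a difference of 0.34 in which DC101 replicate 3 lay at the edge of the metastatic IgG values. Hif1a differed by 0.21 on its brightest probe set, a direction that did not hold over its probe sets, since their mean gave -0.05. Pfkfb3 differed by 0.40 (interval from 0.06 to 0.75, adjusted p = 0.741), with DC101 replicate 2 (10.92) below the highest metastatic IgG array (10.93).

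Bnip3 and Ndrg1 showed little difference under DC101. Bnip3 stood at 12.46, 12.28 and 12.30 in DC101 arrays and at 12.28, 12.36 and 12.36 in metastatic IgG arrays, a difference of 0.01 with an interval from -0.23 to 0.25. Ndrg1 stood at 13.10, 13.25 and 13.16 in DC101 arrays and at 13.18, 13.30 and 13.27 in metastatic IgG arrays, a difference of -0.08 with an interval from -0.32 to 0.16. Their arrays overlapped, and these intervals bound the change of each gene. No further gene of either pathway was called, and the largest differences among the named ones were those of Narf (-0.48) and Adm (-0.45), with adjusted p of 0.737 and 0.741. Cell division markers had summed levels of 14.31 to 15.02 in DC101 arrays and 14.79 to 15.47 in metastatic IgG arrays, and all 11 had a negative change (median -0.40). Lung epithelial markers had 7 positive and 2 negative changes (median 0.46), with summed levels of 12.78 to 14.05 in DC101 arrays and 12.68 to 13.00 in metastatic IgG arrays. All 7 erythrocyte and platelet markers had a positive change (median 0.19), and 8 of 10 macrophage and monocyte markers a negative one (median -0.16). Fibroblast and mural markers had 7 positive changes and 1 negative (median 0.17). Neutrophil markers had 1 positive and 6 negative (median -0.17), and lymphocyte markers 5 positive and 1 negative (median 0.08). None of these markers was called, and their part in the values above was not tested. Results without DC101 replicate 1 or replicate 3, the arrays that stood apart, also held no call.

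**Figure D4:**
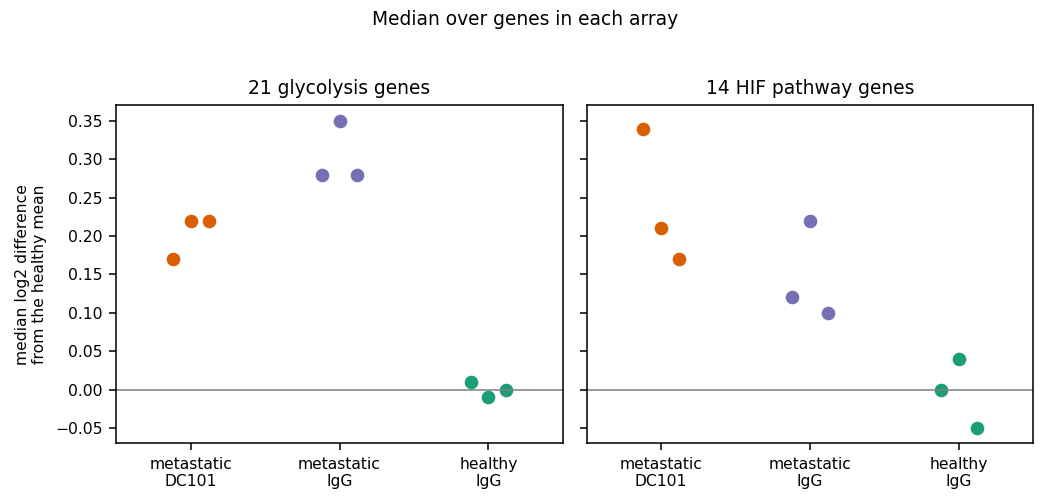
Median log2 difference from the healthy mean (vertical axis) over the 21 glycolysis genes and the 14 HIF pathway genes in each array, 3 arrays a group; healthy arrays lie near 0 by construction. For glycolysis the DC101 arrays (0.17 to 0.22) lie below the metastatic IgG arrays (0.28 to 0.35), and for the HIF arm they range from 0.17 to 0.34 against 0.10 to 0.22.

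As a description of each array, the difference of every gene from its healthy mean was taken and the median over each arm was formed. For the 21 glycolysis genes it was 0.17, 0.22 and 0.22 in DC101 arrays, 0.28, 0.35 and 0.28 in metastatic IgG arrays and -0.01 to 0.01 in healthy arrays. The values of the 3 groups did not overlap. For the 14 HIF pathway genes it was 0.34, 0.21 and 0.17 in DC101 arrays, 0.12, 0.22 and 0.10 in metastatic IgG arrays and -0.05 to 0.04 in healthy arrays. Here the metastatic groups overlapped, with DC101 replicate 1 the highest. Over all genes these medians ran from -0.07 to -0.01 in DC101 arrays and from -0.03 to -0.02 in metastatic IgG arrays.

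The last comparison set DC101-treated metastatic lungs against healthy lungs, to describe what differed from the healthy state under VEGFR2 blockade. It shares arrays with each of the comparisons above. Genes of the HIF arm made up most of the calls, with Hif1a, Ankrd37, Bnip3 and Ndrg1 higher and Hilpda lower, while Pkm was the 1 glycolysis gene called. In all, 5 of the 35 genes were called higher and 1 lower, against 1.58% and 0.835% of all genes (2.42% in either direction). Whether the arms differed in this was not tested. The median change was 0.16 over the 35 genes and -0.04 over all genes, and arrays did not overlap for 11 genes higher and 4 lower, against 9.44% and 13.6% of all genes (23.1% in either direction).

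Ankrd37 was higher by 1.86 ± 0.21 (SE, adjusted p = 0.00805), a 3.62-fold difference, with all DC101 arrays above all healthy arrays. Hif1a stood at 12.95, 13.14 and 12.97 in DC101 arrays and at 11.79, 11.97 and 11.82 in healthy arrays, a difference of 1.16 ± 0.11 (SE, adjusted p = 0.00432) that was 2.23-fold. Ndrg1 was higher by 1.14 ± 0.10 (SE, adjusted p = 0.00298). The calls of Ankrd37, Hif1a and Ndrg1 held whichever array was left out, and that of Ndrg1 was lost in 1 alternative, without probe sets whose probes can match several transcripts or genes (adjusted p = 0.059, range 0.000211 to 0.059 over 15 alternatives). Calls of the other 3 genes were less stable. Pkm (0.60 ± 0.10, SE, adjusted p = 0.0281) and Hilpda (-0.65 ± 0.11, SE, adjusted p = 0.0305) lost the call without any 1 of the 6 arrays, with adjusted p from 0.0623 to 0.117 and from 0.0504 to 0.114 in those fits. Bnip3 (0.70 ± 0.11, SE, adjusted p = 0.0239) lost it without any 1 array except DC101 replicate 3 (adjusted p from 0.0458 to 0.0905).

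Glycolytic genes called in metastatic IgG lungs but not here had DC101 means between those of metastatic IgG and healthy arrays. Pfkl differed from healthy arrays by 0.36 (adjusted p = 0.197), Tpi1 by 0.38 (adjusted p = 0.251) and Pgk1 by 0.24 (adjusted p = 0.39). Aldoc differed by 0.75 (adjusted p = 0.149) and Slc2a1 by 0.33 (adjusted p = 0.445). Among genes with lower values under DC101 than in healthy lungs, Slc2a3 stood at 8.05, 8.29 and 7.99 in DC101 arrays and at 9.01, 8.85 and 8.43 in healthy arrays, a difference of -0.66 (adjusted p = 0.112) without overlap. Egln1 (-0.30) and Higd1a (-0.49) were also lower in every DC101 array, without a call. Ddit4 was higher in every DC101 array by 0.51 (adjusted p = 0.139), and Pfkfb3 by 0.39 (adjusted p = 0.261). Outside the list, Adm (1.18, adjusted p = 0.0304) and Bhlhe40 (0.54, adjusted p = 0.0377) were called among 38 further HIF pathway genes, and none was among 31 further glycolysis genes. The call of Adm was lost without any 1 array except DC101 replicate 1, with the mean of its probe sets and without probe sets that can match several transcripts or genes (adjusted p from 0.00766 to 0.163 over 15 alternatives), and that of Bhlhe40 without any 1 of the 6. In this comparison 7 of 11 cell division markers were called higher (summed level 14.31 to 15.02 in DC101 arrays, 13.58 to 13.66 in healthy arrays). Of 8 fibroblast and mural markers, 2 were called higher (Col1a1 and Col1a2), with summed levels of 13.97 to 14.42 in DC101 arrays and 13.18 to 13.60 in healthy arrays. Of these 8, 5 had a positive change and 3 a negative one, with a median of 0.10. Of 7 erythrocyte and platelet markers, 3 were called lower (Pf4, Ppbp and Tubb1), with summed levels of 11.28 to 11.61 in DC101 arrays and 12.12 to 12.25 in healthy arrays. The 3-prime minus 5-prime difference was 0.35 to 0.60 in DC101 arrays and 0.69 to 0.77 in healthy arrays for Gapdh, and 0.00 to 0.14 in DC101 arrays and -0.11 to 0.09 in healthy arrays for Actb. The part of these features in the values above was not tested.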

How the data were processed

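RNA of sorted lung ECs was amplified, biotin-labelled and hybridised to Affymetrix GeneChip Mouse Genome 430 arrays, 1 array per sample and 9 in all. Normalization by the authors was robust multiarray averaging (RMA) in Chipster, and the values they deposited were taken as log2 expression, the output of RMA, since no log base is named. Array medians were 8.32 to 8.33, and a change in total RNA per cell is lost in such equalised values. Ties were common, with 5915 to 6729 different values per array among 45101 probe sets.

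The 34945 probe sets with 1 gene symbol were used. Symbols came from the platform annotation, updated by gene ID through a RefSeq table (GRCm38.p6). The 64 control probe sets, 932 with several symbols and 9160 without a name were left out. Each of 18193 genes was represented by its brightest probe set on average over 9 arrays, with no filter on dim genes. Each pair of groups was compared on its own 6 arrays with limma 3.58.1 (lmFit, eBayes, two-sided) under R 4.3.3, after the empirical Bayes two-group tests in the study's methods, and p-values were adjusted over all 18193 genes by the Benjamini-Hochberg method. Probe sets were fitted the same way over 34945. SEs and intervals are the moderated ones of limma. The genes and lists were chosen with earlier results of these data known, so they received no test as lists. All 38 genes were eligible to be named, and of the further pathway genes those called in a comparison. Alternatives changed the samples fitted, probe set choice, filter, moderation and scaling.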

Additional observations from a re-analysis of the deposited data

How the results depend on the processing

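The alternatives were a fit of all 9 arrays, the replicate number as a block, leaving out each array, other rules for probe sets, 2 filters on dim genes, another moderation and 2 scalings. The 2 scalings moved the all-gene median change by under 0.1. In metastatic IgG against healthy lungs the 9 calls became 6 to 13, within 1.5 times, and calls over all genes (1188) became 556 to 759 without 1 array. The 6 came without probe sets whose probes can match several transcripts or genes, where only 26 of the 35 genes had a value. Tpi1 and Hilpda had none there. In DC101 against healthy lungs, calls over all genes (440) became 662 with 9 arrays in 1 fit and 110 to 361 without 1 array, and calls among the 35 genes (6) became 3 to 4 without 1 array. With cyclic loess or centring on endothelial markers, the split of higher and lower calls there was 352 and 117 or 299 and 93, against 288 and 152. No alternative gave a call for DC101 against metastatic IgG. Replicate numbers did not pair the arrays, since deviations of same-numbered arrays correlated at -0.05 to 0.08, and the replicate block gave 689, 0 and 247 calls over all genes in the 3 comparisons and 9, 0 and 3 among the 35 genes. These settings were run on 3 arrays a group, and the causes of the changes were not tested.

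Directions turned by more than 1 SE of the change in 13 cases. Without probe sets whose probes can match several transcripts or genes, Pfkl read -0.15 in metastatic IgG and -0.29 in DC101 against healthy lungs, and Hif1a read -0.19 in DC101 against metastatic IgG. With the mean of all probe sets, Egln1 read 0.05 in metastatic IgG against healthy lungs, Hif1a -0.05 and Egln3 -0.22 in DC101 against metastatic IgG, and P4ha1 -0.10 in DC101 against healthy lungs. Leaving out 1 array in turn, Pfkfb4 ran from -0.63 to 0.04 in metastatic IgG against healthy lungs (turned without healthy replicate 3) and from -0.23 to 0.20 in DC101 against metastatic IgG (DC101 replicate 3). Egln3 ran from -0.20 (metastatic IgG replicate 3) to 0.36 in DC101 against metastatic IgG. In DC101 against healthy lungs, Slc16a1 ran from -0.20 (healthy replicate 3) to 0.71, Arnt from -0.33 (DC101 replicate 3) to 0.23 and P4ha2 from -0.30 (DC101 replicate 1) to 0.51. Apart from Pfkl in metastatic IgG against healthy lungs, none of these was called. Of the other alternatives for single genes, 1564 kept direction and side of the threshold, 53 turned by 1 SE or less in values that were not called, 57 lost the call and 8 gained one.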
